A study of Mus musculus with 90 samples.

Results

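Kidney cortex from Balb/c mice injected with 42 kBq of astatine-211 was compared with kidney cortex from mice of the same strain injected with 1.8 kBq. Astatine-211 is a radionuclide that decays by emission of alpha particles, which deposit their energy over a short path in tissue. Both groups were collected 24 h after the injection and differ in the labels only by the injected activity, so the comparison asks what separates a high from a low activity among animals that all received the nuclide. Members of the comparison were the 6 arrays of these groups, 3 per activity, out of 90 arrays in the series, and the 15063 of 25697 probes that were detected in kidney cortex. The series holds 5 tissues at 6 activities, measured on single-colour Illumina mouse bead arrays with biotin-labelled total RNA. Beside the 6 arrays, values are given for 3 kidney cortex arrays at 0 kBq, 3 at 14 kBq, and the kidney medulla arrays of the same activities.

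The labels do not say whether the 3 arrays of a group came from separate animals, so the p-values take in array-to-array scatter alone, which may be technical. On the 6 arrays between 12987 and 13169 probes were detected, and the median unnormalised intensity lay between 108.1 and 135.4. The median SD of a probe within a group was 0.18 on the log2 scale at 1.8 kBq and 0.16 at 42 kBq. It was 0.23 at 0.064 kBq and 0.22 at 0.64 kBq, whose deposited values also lay on another numerical grid than those of the other 12 cortex arrays, and all 18 arrays entered the estimate of the spread. Of the probes of the 6 arrays, 3900 (25.9% of those tested) had levels at 42 kBq that did not overlap those at 1.8 kBq. Levels are log2 normalised intensities throughout, and a difference of 1 on that scale is a 2-fold ratio.

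The kidney cortex holds the glomeruli and most of the proximal tubule, the segment that takes back the bulk of the filtered water, salts, sugar and amino acids. The last stretch of the proximal tubule, the straight S3 segment, runs down through the medullary rays of the cortex into the outer medulla, and it differs from the earlier S1 and S2 segments in its transporters and metabolic enzymes. Injured proximal tubule cells are known to switch on genes such as Lcn2, Havcr1, Timp1 and Vim, and DNA damage is known to raise targets of the transcription factor p53, Cdkn1a and Mdm2 among them.

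Of the 15063 probes tested, 637 (4.23%) were called at an adjusted p under 0.05. Higher at 42 kBq were 262 (1.74%), and lower were 375 (2.49%). With 1 probe per gene, the probe with the highest mean level over the cortex arrays, 394 of 10332 genes were called (3.81%). Of these, 195 genes were higher, 69 of them by more than 2-fold, and 199 were lower, 37 of them by more than 2-fold. The rises were thus the larger changes and the falls the slightly more frequent ones. With 3.81% of genes called, a short gene list without a call is common. Several probes were tested for 121 of the called genes, and in 94 of these every probe had the same sign. The number of calls rested on the array number. It was 337, 354 and 280 without arrays 1, 2 and 3 of the 42 kBq group, and 309, 352 and 436 without arrays 1, 2 and 3 of the 1.8 kBq group. When the spread was taken from the 12 arrays at 0, 1.8, 14 and 42 kBq, 1621 probes were called, which included 636 of the 637.

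Kap had the largest change. This gene encodes the kidney androgen-regulated protein, a product of proximal tubule cells in the mouse. Kap had levels of 13.88, 13.05 and 13.55 on the 42 kBq arrays and of 8.17, 7.44 and 8.60 on the 1.8 kBq arrays. The 2 groups were far apart, and the 42 kBq group was 43.0-fold brighter (log2 difference 5.43 ± 0.83 (SE), adjusted p = 0.000647). The 0 kBq arrays lay between them, with a mean of 10.02 ± 0.37 (SD, n = 3), and so did the 14 kBq arrays, with 11.97 ± 0.54 (SD, n = 3). The spread was far wider at 0.064 kBq, with 10.35 ± 2.03, and at 0.64 kBq, with 11.64 ± 2.20 (SD, n = 3 each). Arrays of 1 activity could thus differ several-fold in Kap. Tissue pieces were measured in bulk, so fewer cells of a type and less RNA per cell cannot be told apart for this gene or any other below. The promoter of Kap is shown because it belongs to the largest change. The window of 300 bases around the annotated start (RefSeq, GRCm38.p6, chr6:133853618-133853917, minus strand) holds the letters TATAAA in capitals, starting at base 220.
Kap: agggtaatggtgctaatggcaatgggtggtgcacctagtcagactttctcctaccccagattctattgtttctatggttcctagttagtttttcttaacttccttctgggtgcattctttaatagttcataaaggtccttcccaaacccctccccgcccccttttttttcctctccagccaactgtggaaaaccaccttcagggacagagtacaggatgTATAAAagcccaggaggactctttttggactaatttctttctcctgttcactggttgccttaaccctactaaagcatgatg
The same letters were found on either strand in 13.6% of 32851 RefSeq promoter windows of this length.

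The other 9 of the 10 largest rises were Spink6, Bcat1, Slc22a19, Mfsd2a, Hdc, Npy, Ldc1, Abcc3 and Nccrp1, with log2 differences down to 2.86. Npy encodes neuropeptide Y, a peptide transmitter. Its levels were 8.83, 8.83 and 8.98 at 42 kBq and 5.99, 5.23 and 5.48 at 1.8 kBq. The 42 kBq arrays of Npy agreed closely and stood 9.92-fold above the 1.8 kBq arrays (log2 difference 3.31 ± 0.24 (SE), adjusted p = 1.68e-07). At 0 kBq the mean of Npy was 5.14 ± 0.40 and at 14 kBq 5.56 ± 0.17 (SD, n = 3 each), so the 42 kBq group alone of these 4 was high.

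Hdc encodes histidine decarboxylase, the enzyme that makes histamine. Hdc lay at 10.76, 10.87 and 10.69 on the 42 kBq arrays and at 7.23, 7.36 and 7.26 on the 1.8 kBq arrays, an 11.2-fold difference (log2 3.49 ± 0.51 (SE), adjusted p = 0.000395). The level at 0 kBq, 8.43 ± 0.10, was between the groups and that at 14 kBq, 10.16 ± 0.09 (SD, n = 3 each), was close to the 42 kBq level. Bcat1, the cytosolic aminotransferase of branched-chain amino acids, was at 8.87, 8.96 and 9.15 against 4.76, 5.46 and 5.85 and rose 12.5-fold (adjusted p = 1.09e-06). Of the 2 Bcat1 probes tested 1 was called. Abcc3 encodes an efflux pump for organic anions. Abcc3 lay at 9.22, 9.26 and 9.49 against 5.70, 6.66 and 6.21, which made it 8.77-fold higher (adjusted p = 0.000419). Mfsd2a, a carrier of lysophospholipids, was 11.2-fold higher, Spink6, a protease inhibitor, 14.7-fold, Ldc1, a leucine decarboxylase, 9.72-fold, and Nccrp1 7.28-fold. Bcat1, Ldc1 and Nccrp1 were detected on 2 of the 3 arrays at 1.8 kBq. On none of these 10 genes did an array of 1 group reach the other group, which was a condition for entering this ranking. Kap was the called gene of 8 that androgens raise in mouse kidney, a list with a median of 0.01. Abcc3 was the called gene of 3 that are higher in female kidney, beside Slc7a12, a transporter subunit, with 2.50 (adjusted p = 0.081).

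**Figure D1:**
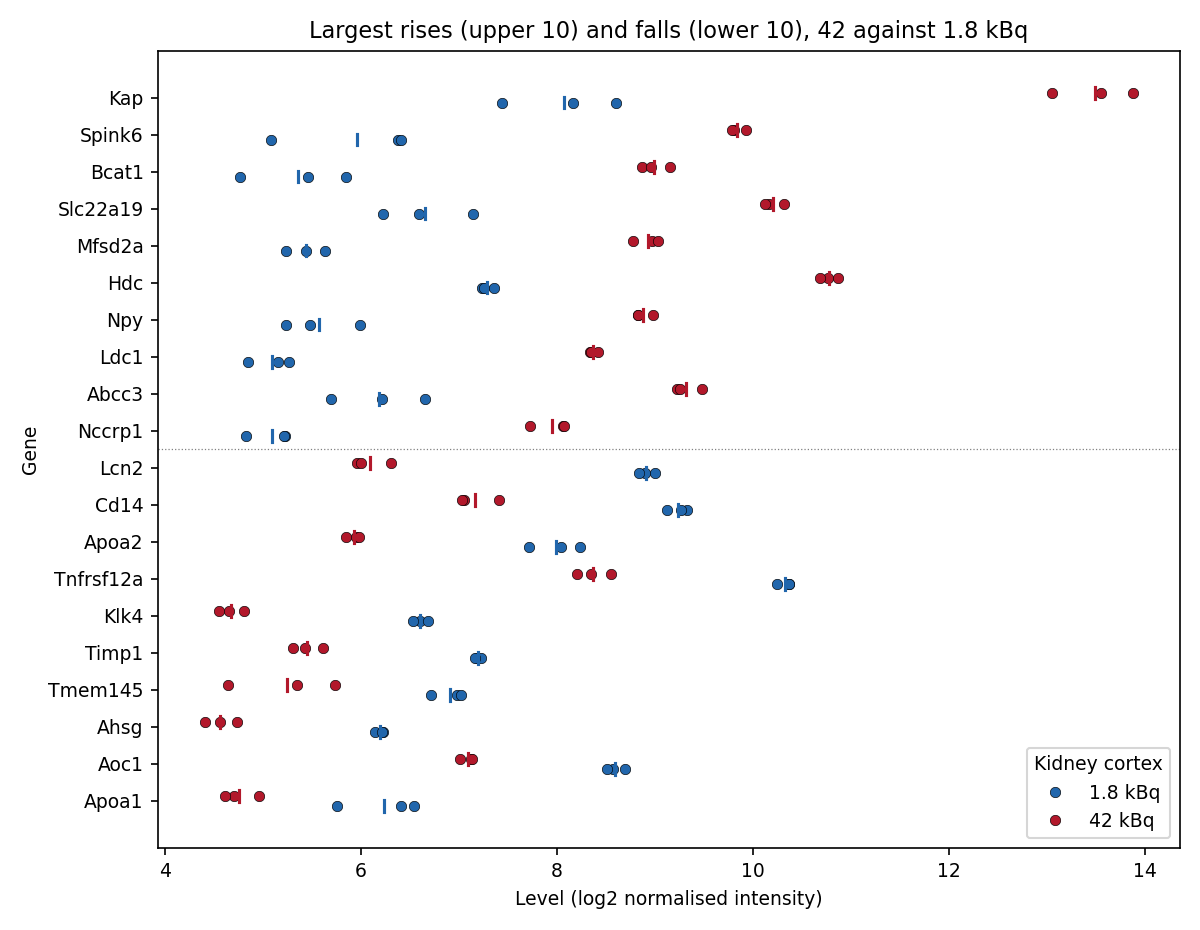
Levels (log2 normalised intensity, horizontal axis) of the 10 genes with the largest rises and the 10 with the largest falls on each of the 6 arrays. Red points are the 3 arrays at 42 kBq, blue points the 3 at 1.8 kBq, and the short bars their means. For all 20 genes the groups are apart, as their selection required, and Kap spans the widest range, from 7.44 to 13.88.

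The probe ILMN_2835423, which has no gene name in the tables used here, changed by 4.62 on the log2 scale, more than any named gene but Kap (adjusted p = 0.032). It was chosen for mention after its value was seen, and it moved the other way in 14 against 0 kBq (log2 -1.11, adjusted p = 0.88).

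The genes that rose most were high in the medulla of control kidneys. At 0 kBq all 10 largest rises were higher in medulla than in cortex, by 3.26 to 6.17 on the log2 scale. Over the whole table, 1774 probes (11.8%) were higher and 2151 (14.3%) lower in 0 kBq medulla than in 0 kBq cortex. Of the 262 probes higher at 42 kBq, 155 (59.2%) were higher in the control medulla and 26 lower, and 81 were not called. Of the 375 probes lower at 42 kBq, 64 (17.1%) were higher in the control medulla and 86 (22.9%) lower, which is nearer to the shares over all probes. The 0 kBq arrays take no part in the 42 against 1.8 kBq difference, except in the estimate of the spread. With only the arrays at 0, 1.8, 14 and 42 kBq, an alternative chosen after seeing the data, the share of 59.2% became 49.1%. In that setting 735 probes were called higher, and the share over all probes, 11.8% in the main fit, was not computed.

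Markers of the S3 segment moved with this pattern. Of 6 tested S3 genes 4 were higher at 42 kBq and none lower, with a median log2 difference of 1.62 over the 6 against 0.00 over all probes, and all 6 were higher in control medulla than in control cortex. Slc22a19, an organic anion transporter of the S3 segment, had levels of 10.17, 10.32 and 10.13 at 42 kBq and of 6.23, 7.15 and 6.60 at 1.8 kBq. Its groups were well apart and differed 11.7-fold (log2 3.55 ± 0.54 (SE), adjusted p = 0.00062), with 2 of its 3 probes called. Slc22a7, another organic anion transporter, was at 7.80, 7.98 and 8.11 against 5.68, 5.86 and 5.87 and rose by 2.16 (adjusted p = 7.49e-05). Aadat, an aminotransferase of the kynurenine pathway, was at 10.22, 9.68 and 9.46 against 8.05, 7.37 and 7.63 and rose by 2.11 (adjusted p = 0.000855). Slc5a8, a sodium-coupled carrier of monocarboxylates, was at 11.16, 11.26 and 11.25 against 9.52, 10.44 and 10.28 and rose by 1.14 (adjusted p = 0.00227). The other tested S3 genes, Cyp7b1 and Slc5a1, differed by 0.26 and 0.32 and were not called. Slc7a13, another S3 marker, was detected on 0 of the 18 cortex arrays.

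Markers of other segments shifted less. The S1 and S2 list had a median of -0.03, with 0 of 11 genes higher and 2 lower, and 9 of its 11 genes were lower in control medulla than in control cortex. The 2 that fell were Cyp2e1, a cytochrome P450 (log2 -0.87 ± 0.22 (SE), adjusted p = 0.027), and Slc7a7, a subunit of a basolateral amino acid exchanger (-0.64 ± 0.16, adjusted p = 0.031). These calls were lost in 7 and 6 of 18 alternative settings. Of 13 markers of the whole proximal tubule 1 fell, Cyp4b1, by 0.51 on the log2 scale. All 8 genes of the thick ascending limb, whose cells make uromodulin and dilute the urine, were above 0 with a median of 0.38. Of the 8, 5 did not overlap between the groups, against 25.9% of all probes. None of the 8 was called by limma (3 at an unadjusted p under 0.05). Umod, the uromodulin gene, was at 14.57, 14.60 and 14.57 against 14.29, 14.19 and 14.25. Of 5 podocyte genes, whose cells belong to the glomeruli of the cortex, 4 were below 0 with a median of -0.37, and only Cdkn1c was called (log2 -0.51 ± 0.14 (SE), adjusted p = 0.047, lost in 7 of 18 settings).

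Water channels and osmolyte carriers, which serve the concentration of urine, were among the rises. Aqp4, a water channel of collecting duct cells, lay at 8.03, 7.86 and 8.25 at 42 kBq and at 5.30, 5.93 and 5.84 at 1.8 kBq, a rise of 2.36 ± 0.47 (SE, log2, adjusted p = 0.0055). Aqp3, another collecting duct water channel, rose by 0.59 (adjusted p = 0.018, lost in 6 of 18 settings). Of 7 collecting duct genes these 2 were called higher and none lower, and Aqp2, the channel that vasopressin regulates, differed by 0.55 and was not called (adjusted p = 0.23). Slc5a3, a carrier of the osmolyte inositol, was at 7.40, 7.74 and 7.40 against 5.83, 6.18 and 6.03 and rose by 1.5 (adjusted p = 0.00101). Slc6a12, a carrier of the osmolyte betaine, was not above background on the 1.8 kBq arrays and was at least 2.16-fold higher at 42 kBq (adjusted p = 0.030, lost in 7 of 18 settings). Such a lower bound sets the mean level of the brighter group against the detection limit of the dimmer arrays. Slc5a3 and Slc6a12 were the called genes among 6 tested genes of the inner medulla, and none was called lower, though 3 of the 6 were below 0. Slc6a12 was detected on 3 arrays at 42 kBq and on 0 at 1.8 kBq. It thus met the filter of 3 detected arrays with the group where it is high, and its direction gives no support to a rise of the list.

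The level of the S3 list was not the same in all cortex groups. With cortex and medulla arrays normalised together, the median level of its 6 genes lay between 6.57 and 6.99 on the 0 kBq cortex arrays and between 6.98 and 7.32 at 1.8 kBq. It lay between 7.92 and 8.24 at 14 kBq and between 8.81 and 9.04 at 42 kBq, so the 14 kBq arrays and then the 42 kBq arrays stood above the others, while the ranges at 0 and 1.8 kBq overlapped. In medulla it was between 9.81 and 9.89 at 0 kBq. At 1.8 kBq it was between 8.61 and 8.76 and at 42 kBq between 9.63 and 10.02. How much of the outer medulla each piece of cortex held is not given in the sources used here, and its part in these rises was not tested.

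The same probes were then read on arrays that took no part in the difference, except in the estimate of the spread. In 14 against 0 kBq cortex, 18 probes were called (0.119%). The change was above 0 in 49.8% of all probes and in 211 of the 262 higher probes (80.5%, median 0.27), of which 9 were called. It was above 0 in 123 of the 375 lower probes (32.8%, median -0.11). None of the 375 was called by limma there, and 96 had an unadjusted p under 0.05. The unadjusted p of that fit was under 0.05 for 102 of the 262 higher probes and for 1289 of all 15063 probes. These counts take in both signs. Both differences use the same estimate of the spread, and calls favour probes where it is small, which by itself raises the shares of called probes. In 0.64 against 0.064 kBq cortex the change was above 0 in 51.8% of all probes, in 208 of the higher probes (79.4%) and in 87 of the lower probes (23.2%). Each of the 10 largest rises was above 0 in 14 against 0 kBq, by 0.42 to 2.18 on the log2 scale. None of the 10 was called by limma there, and 8 had an unadjusted p under 0.05. The 0 kBq cortex arrays also enter the control difference between the zones, so the shares with the medulla and with 14 against 0 kBq do not stand apart from each other.

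Falls looked different from rises when set beside the 0 kBq arrays. The 0 kBq mean was nearer to the 42 kBq mean than to the 1.8 kBq mean in 276 of the 375 lower probes (73.6%), in 84 of the 262 higher probes (32.1%) and in 53.5% of all probes. The 14 kBq mean was nearer to the 42 kBq mean in 321 of the lower probes (85.6%), in 141 of the higher probes (53.8%) and in 61.3% of all probes. The 10 largest falls were Lcn2, Cd14, Apoa2, Tnfrsf12a, Klk4, Timp1, Tmem145, Ahsg, Aoc1 and Apoa1, with fitted log2 differences from -2.82 to -1.48. Klk4, Ahsg and Apoa1 were not above background at 42 kBq, so theirs give only bounds, stated where each is described. In each of these 10 the 1.8 kBq mean was higher than the 0 kBq mean, and 0 minus 1.8 kBq ranged from -3.60 to -1.04 on the log2 scale.

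Lcn2 encodes lipocalin 2, a protein that sequesters bacterial iron carriers and a widely used marker of tubular injury. Lcn2 lay at 5.96, 6.0 and 6.31 at 42 kBq and at 9.0, 8.90 and 8.83 at 1.8 kBq. The 1.8 kBq arrays were 7.08-fold brighter (log2 difference -2.82 ± 0.28 (SE), adjusted p = 3.95e-06), while the means at 0 and 14 kBq were 5.32 ± 0.06 and 5.53 ± 0.16 (SD, n = 3 each). Tnfrsf12a, the receptor of the cytokine TWEAK, was at 8.20, 8.55 and 8.35 against 10.37, 10.37 and 10.25, a fall of 1.96 (adjusted p = 0.0047), with 7.83 ± 0.30 at 0 kBq. Timp1, an inhibitor of matrix metalloproteinases, was at 5.31, 5.61 and 5.43 against 7.19, 7.23 and 7.16, a fall of 1.74 (adjusted p = 4.09e-05), with 4.97 ± 0.06 at 0 kBq. In all of these the 1.8 kBq group was the high group of the 4.

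The list of tubular injury genes lay on the lower side throughout. Of 11 tested genes 6 were lower at 42 kBq and none higher, all 11 were below 0, and the median log2 difference was -0.79. In 10 of the 11 the levels of the groups did not overlap, against 25.9% of all probes. Vim, the intermediate filament vimentin, was at 6.68, 6.75 and 6.87 against 7.78, 7.82 and 7.71 and fell by 1.00 (adjusted p = 0.018), a call lost in 5 of 18 settings. Clu and Krt8 were the other called genes, with -0.73 and -0.47. Havcr1, the kidney injury molecule of proximal tubule cells, was at 9.21, 9.36 and 9.29 against 9.76, 10.49 and 10.33 and was not called (log2 -0.91 ± 0.60 (SE), adjusted p = 0.49). Its cortex mean was 6.48 ± 0.21 at 0 kBq and 8.07 ± 0.15 at 14 kBq (SD, n = 3 each), so for Havcr1 both groups compared stood above the 0 kBq arrays. In control kidneys Havcr1 was 5.11 higher on the log2 scale in medulla than in cortex. The medulla had a median of -0.94 for the same 11 genes.

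**Figure D2:**
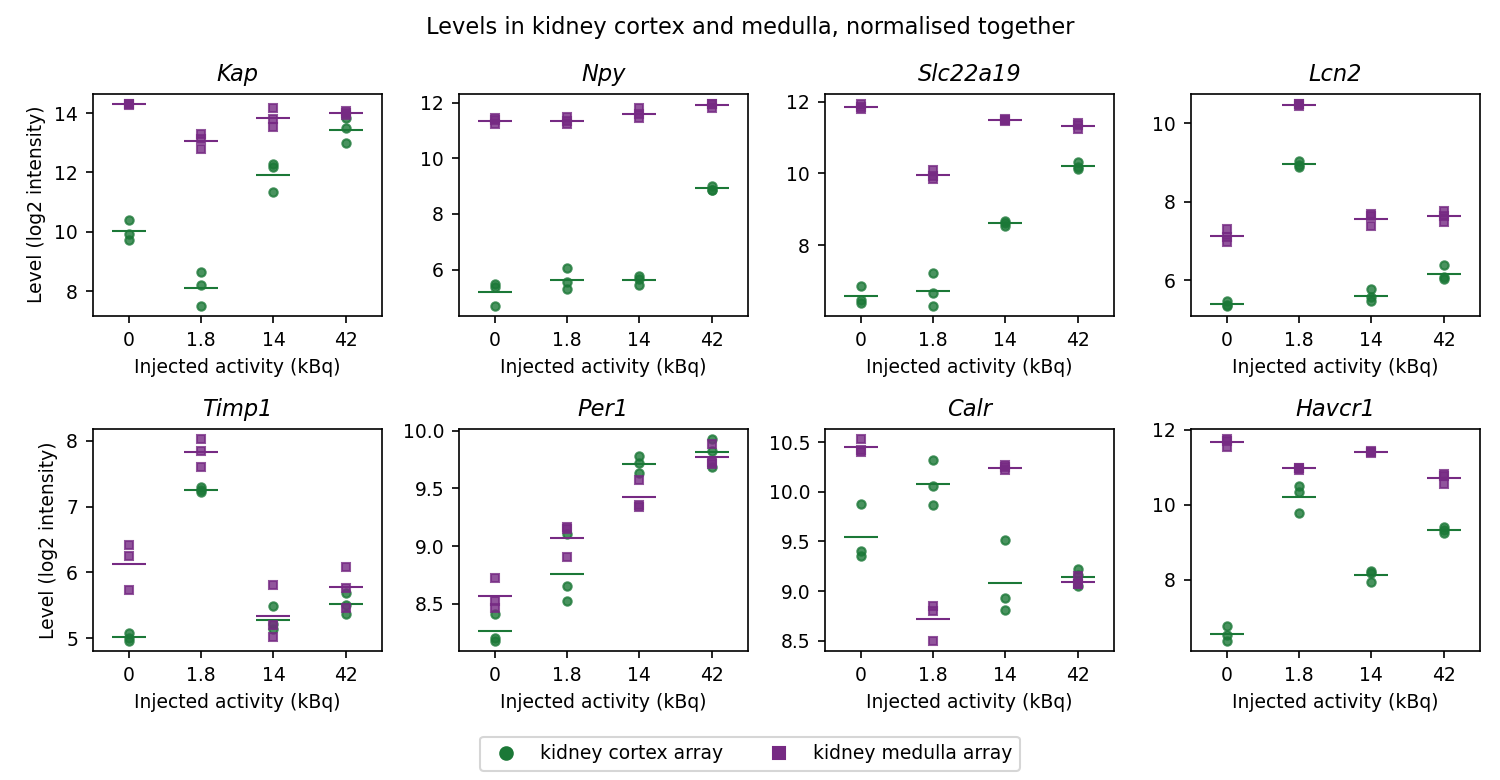
Levels (log2 intensity, cortex and medulla arrays normalised together, vertical axis of each panel) of 8 genes against the injected activity in kBq. Green circles are kidney cortex arrays, purple squares kidney medulla arrays, and horizontal bars the means of 3 arrays. Kap and Slc22a19 rise in cortex from 1.8 to 42 kBq, Lcn2 and Timp1 stand highest at 1.8 kBq in both zones, and Calr falls from 1.8 to 42 kBq in cortex while its medulla mean rises.

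Immune and inflammatory genes lay mostly below 0 without many calls. Cd14, the co-receptor for bacterial lipopolysaccharide, was at 7.05, 7.04 and 7.41 at 42 kBq and at 9.12, 9.33 and 9.27 at 1.8 kBq. It was 4.21-fold lower at 42 kBq (log2 -2.08 ± 0.38 (SE), adjusted p = 0.0031), and its 0 kBq mean was 6.64 ± 0.05 (SD, n = 3). Of 9 genes for cytokines, chemokines and adhesion molecules 8 were below 0, with a median of -0.49. None of the 9 was called by limma, and 6 had an unadjusted p under 0.05. Of 11 acute phase genes 9 were below 0 with a median of -0.27, again with no call and 3 genes at an unadjusted p under 0.05. Of 15 interferon-stimulated genes 12 were above 0, with a median of 0.39. Oas2, which makes a messenger that activates RNA decay, was the called gene, at 6.57, 6.08 and 6.57 against 5.70, 5.37 and 5.57 (rise of 0.86, adjusted p = 0.029, lost in 6 of 18 settings). Of 11 macrophage markers 9 were below 0 with a median of -0.25 and no call by limma (1 at an unadjusted p under 0.05), and their summed linear level was 1482 to 1580 at 42 kBq and 1687 to 1962 at 1.8 kBq.

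Klk4 and Aoc1 were also among the largest falls. Aoc1 encodes diamine oxidase, which breaks down histamine and putrescine. Aoc1 was at 7.12, 7.02 and 7.14 against 8.58, 8.52 and 8.69, a fall of 1.5 (adjusted p = 9.61e-06), with 6.18 ± 0.14 (SD, n = 3) at 0 kBq. Klk4, a kallikrein protease, was not above background on the 42 kBq arrays and was at least 2.92-fold lower there (adjusted p = 3.05e-06). Tmem145, a membrane protein, was detected on 2 of the 3 arrays at 42 kBq and fell by 1.66 (adjusted p = 0.0074).

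Apoa2, Ahsg and Apoa1, genes of plasma proteins that the liver secretes, were lower at 42 kBq. Apoa2, an apolipoprotein of high-density lipoprotein, was at 5.95, 5.85 and 5.98 at 42 kBq and at 8.04, 8.23 and 7.71 at 1.8 kBq, a fall of 2.07 ± 0.25 (SE, log2, adjusted p = 4.09e-05). Its 0 kBq mean was 6.95 ± 0.23 and its 14 kBq mean 6.62 ± 0.06 (SD, n = 3 each), both between the groups compared. Ahsg, the gene of fetuin-A, was not above background at 42 kBq and at least 2.19-fold lower there (adjusted p = 3.95e-06), with 1 of its 2 probes called. Apoa1 was at least 2.26-fold lower (adjusted p = 0.000145). On the 1.8 kBq arrays Ahsg had levels of 6.14, 6.22 and 6.21 and Apoa1 of 6.41, 6.55 and 5.76, near the lower end of what the arrays detect. Of 5 tested hepatocyte genes these 3 were called lower. Ahsg and Apoa1 were detected on 3 arrays at 1.8 kBq and on 0 at 42 kBq. They thus met the filter of 3 detected arrays with the group where they are high, and their direction gives no support to a fall of the list. Ttr and Serpina1a differed by 0.79 and 0.06 and were not called (Ttr with an unadjusted p under 0.05), and the summed linear level of the 5 was 3166 to 3448 at 42 kBq and 2023 to 2617 at 1.8 kBq, the reverse direction. Alb, the albumin gene, was detected on fewer than 3 cortex arrays and not tested, and a share of hepatocyte RNA in these arrays was not tested. Cela2a, a pancreatic elastase, was also not above background at 42 kBq and at least 1.45-fold lower (adjusted p = 0.0063), while 7 of 9 pancreas genes on the array were not tested for lack of detection. Cela2a was detected on 3 arrays at 1.8 kBq, so it too met the filter with the group where it is high. The other of the 2 tested pancreas genes was above 0 and not called by limma (unadjusted p under 0.05). The summed linear level of the 2 was 3488 to 3784 at 42 kBq and 2606 to 3129 at 1.8 kBq, also the reverse direction.

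Of the clock genes, Per1, Per2 and Ciart rose. The circadian clock is a feedback loop in which the Period proteins and Ciart repress the activators Clock and Arntl, which act through E-box elements in the DNA. Per1 was at 9.93, 9.82 and 9.67 at 42 kBq and at 9.07, 8.61 and 8.48 at 1.8 kBq, a rise of 1.08 ± 0.22 (SE, log2, adjusted p = 0.0057). Its means were 8.22 ± 0.13 at 0 kBq and 9.70 ± 0.08 at 14 kBq (SD, n = 3 each), and its 14 against 0 kBq difference of 1.48 was called as well (adjusted p = 0.0074). Ciart was at 7.81, 8.06 and 8.07 against 6.59, 6.67 and 6.51, a rise of 1.39 ± 0.30 (SE, adjusted p = 0.0091). Per2 was at 10.75, 10.71 and 10.77 against 9.56, 10 and 9.94, a rise of 0.91 (adjusted p = 0.013, lost in 3 of 18 settings, 2 of its 3 probes called). Of 14 tested core clock genes these 3 were higher and none lower, with a median of 0.32. Usp2, a deubiquitinase under clock control, rose by 0.77 (adjusted p = 0.000906, 2 of its 3 probes called). The activator Arntl, whose messenger runs opposite to those of the Period genes, was not above background at 42 kBq, at least 1.43-fold lower there and not called (adjusted p = 0.12), and Dbp, an output of the clock, differed by 0.47 (adjusted p = 0.091). The hour at which tissue was collected is not given in the sources used here, and its part in these rises was not tested.

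The promoters of 2 of these clock genes are shown because the genes moved together and their windows hold the E-box letters CACGTG, printed in capitals. The table holds 2 windows for Per1, and the one without the letters, at chr11:69099902-69100201 on the plus strand, is not printed. The windows are 300 bases long (RefSeq, GRCm38.p6), at chr11:69098699-69098998 on the plus strand for the printed Per1 window and at chr3:95882179-95882478 on the minus strand for Ciart.
Per1: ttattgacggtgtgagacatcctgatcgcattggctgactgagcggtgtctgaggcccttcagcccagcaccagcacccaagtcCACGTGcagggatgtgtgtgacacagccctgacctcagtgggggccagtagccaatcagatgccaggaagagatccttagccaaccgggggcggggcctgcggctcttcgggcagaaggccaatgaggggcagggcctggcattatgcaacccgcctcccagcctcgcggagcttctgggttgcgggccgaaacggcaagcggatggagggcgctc
Ciart: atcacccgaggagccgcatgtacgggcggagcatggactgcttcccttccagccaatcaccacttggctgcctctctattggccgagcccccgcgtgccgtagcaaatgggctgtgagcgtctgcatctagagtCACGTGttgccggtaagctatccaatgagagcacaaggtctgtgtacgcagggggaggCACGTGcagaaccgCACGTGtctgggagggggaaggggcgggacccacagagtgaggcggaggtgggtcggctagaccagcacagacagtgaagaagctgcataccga
The letters read the same on both strands and do not overlap another motif searched here. They occur 1 time in the printed Per1 window, 0 times in the other and 3 times in the Ciart window, and 7.15% of all 32851 windows hold them. Of the 4 called clock genes, Usp2 included, 3 had a window in the RefSeq table and 2 of these held the letters in at least 1 window. Among all named genes with a window they were found in 2 of 18 that rose and in 3 of 21 that fell. These counts are of genes, some with several windows, while the 7.15% is a share of windows.

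**Figure D3:**
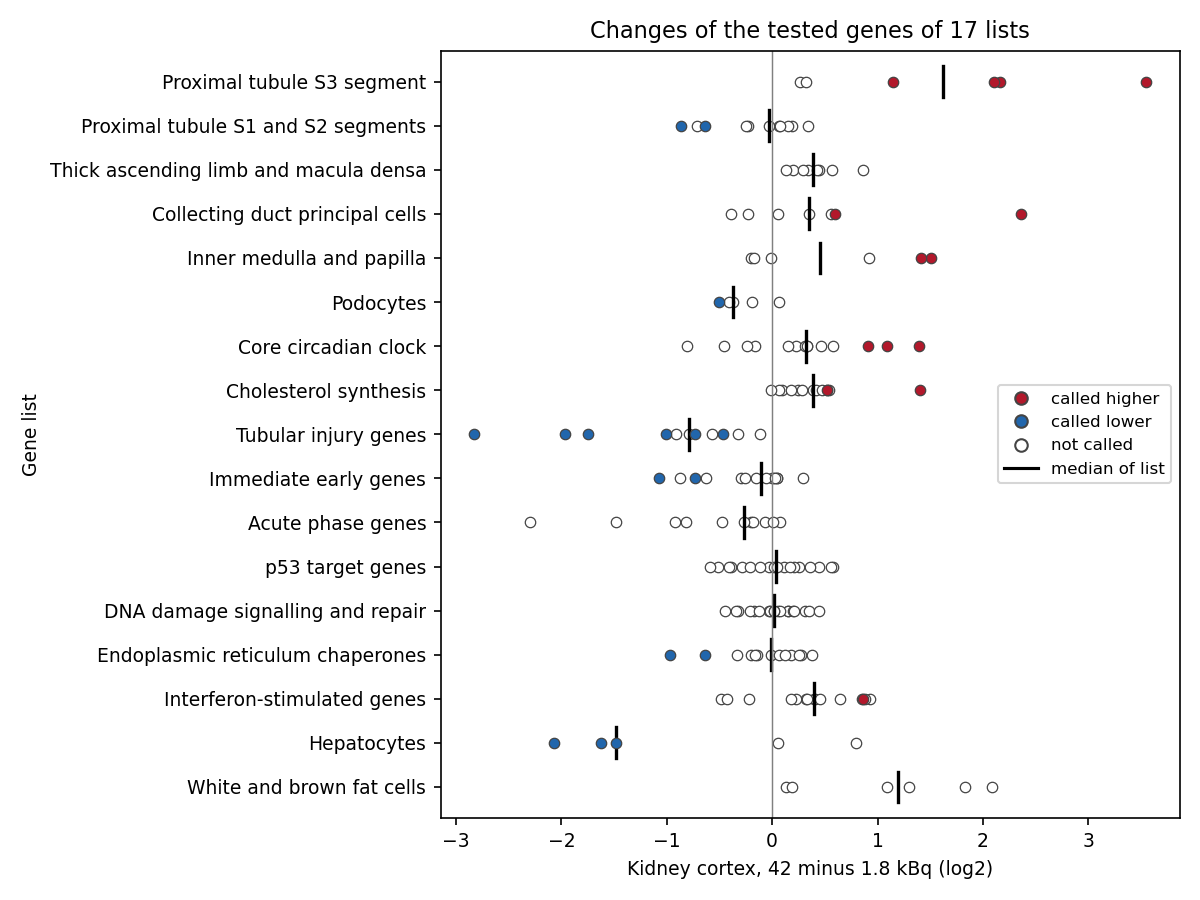
Log2 differences between 42 and 1.8 kBq in kidney cortex (horizontal axis) for the tested genes of 17 lists (rows). Red points were called higher, blue points lower, open points were not called, and black bars are list medians. The S3 list has its median at 1.62 and the tubular injury list at -0.79, while the p53 and DNA repair lists are centred near 0.

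Genes of the response to DNA damage were not called in either direction, while 3.81% of all genes were called. At that share, 0 calls among 19 genes says little about a list. Of 19 p53 targets 0 were called by limma, 5 had an unadjusted p under 0.05 (2 higher, 3 lower), and the median was 0.03. Cdkn1a, the cell cycle inhibitor p21, was at 7.0, 7.11 and 7.10 at 42 kBq and at 7.52, 7.47 and 7.77 at 1.8 kBq, and its difference of -0.52 ± 0.20 (SE) was not called (adjusted p = 0.17). The Cdkn1a arrays did not overlap, the 0 kBq mean was 6.48 ± 0.18 (SD, n = 3), and its 3 probes did not share 1 sign. Mdm2, the ligase that limits p53, was at 9.95, 10.23 and 10.19 against 9.82, 9.82 and 9.98 (difference 0.25, adjusted p = 0.33). Of 19 genes of damage signalling and repair 0 were called by limma, 3 had an unadjusted p under 0.05, and the median was 0.02. Of 13 proliferation genes Cdc20, an activator of the mitotic ubiquitin ligase, was called, with a fall of 0.84 (adjusted p = 0.032, lost in 7 of 18 settings, 1 of its 3 probes called).

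Immediate early genes, which stimuli switch on within minutes, gave 2 falls among 14 tested genes and no rise. Egr1 was at 8.98, 8.98 and 8.63 against 9.95, 9.84 and 10.01 and fell by 1.07 (adjusted p = 0.034), and Klf6 fell by 0.73 (adjusted p = 0.031). Both are transcription factors, and both calls were lost in 7 of 18 settings. For Egr1 the 0 kBq mean of 8.90 ± 0.16 (SD, n = 3) was close to the 42 kBq level. Fos was at 6.25, 6.2 and 6.21 against 7.36, 6.88 and 7.04 and was not called (difference -0.88, adjusted p = 0.059).

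Among the stress proteins, Calr and Creld2 fell. Calr encodes calreticulin, a calcium-binding chaperone of the endoplasmic reticulum. Calr was at 9.02, 9.13 and 9.19 at 42 kBq and at 9.86, 10.06 and 10.32 at 1.8 kBq, a fall of 0.97 ± 0.17 (SE, log2, adjusted p = 0.0025). Of 13 genes of this group Calr and Creld2 (-0.64, adjusted p = 0.0088, 1 of its 2 probes called) were lower, none was higher, and the median was -0.01. Phgdh, the first enzyme of serine synthesis, fell by 0.79 (adjusted p = 0.014) and was the called gene of 17 of the integrated stress response. Rbm3, an RNA-binding protein that cold induces, was at 10.04, 10.26 and 10.05 against 11.03, 11.04 and 10.88 and fell by 0.87 (adjusted p = 0.0049), with 1 of its 3 probes called and all 3 of the same sign. Its relative Cirbp differed by 0.10 (adjusted p = 0.87). Of 16 heat shock genes 0 were called by limma and 2 had an unadjusted p under 0.05, and Hsph1 differed by 0.37 (adjusted p = 0.33).

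Of the lipid genes, Cyp51, Fdps and Acadm rose. Cyp51, the sterol demethylase of cholesterol synthesis, was at 9.86, 10.04 and 10.13 at 42 kBq and at 8.32, 8.84 and 8.66 at 1.8 kBq, a rise of 1.41 ± 0.29 (SE, log2, adjusted p = 0.00725). Fdps, which makes farnesyl diphosphate, rose by 0.52 (adjusted p = 0.040, lost in 7 of 18 settings). Of 13 cholesterol genes these 2 were higher and none lower, 12 were above 0, and the median was 0.39. Acadm, the medium-chain acyl-CoA dehydrogenase, rose by 0.59 (adjusted p = 0.034, lost in 8 of 18 settings, 1 of its 2 probes called). It was the called gene of 17 of fatty acid oxidation, of which 10 were above 0 and 7 below, with a median of 0.05. Angptl4, a secreted inhibitor of lipoprotein lipase, was at 10.80, 10.78 and 10.98 against 10.04, 10.04 and 9.95 and was not called (difference 0.84, adjusted p = 0.060), with 9.08 ± 0.10 (SD, n = 3) at 0 kBq. Of 6 tested fat cell markers 0 were called by limma, nor was any at an unadjusted p under 0.05, and 4 were not above background on any 1.8 kBq array. Adipoq, the adiponectin gene of fat cells, was at 6.95, 6.59 and 7.02 at 42 kBq and was not above background at 1.8 kBq, and Ucp1 of brown fat was at 6.36, 6.37 and 6.27 and not above background at 1.8 kBq either. For Adipoq the SE of the difference was 1.20 while the SD within the groups was 0.23 and 0.20, since the fit takes its spread from all 18 arrays. The summed linear level of the 6 markers was 369 to 409 at 42 kBq and 154.3 to 168.6 at 1.8 kBq, and Fabp4, Plin1 and Retn were not tested for lack of detection. As 0 of the 6 were detected on all 6 arrays, the sum at 1.8 kBq takes in background levels. The 4 without detection at 1.8 kBq met the filter with arrays of other groups, so their direction gives no support to a rise of the list. The list median was 1.19 in cortex and -0.66 in medulla. The part of fat tissue in the lipid genes was not tested.

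Matrix genes were divided. Col1a1, a chain of fibrillar collagen, was at 5.36, 5.02 and 5.65 against 6.21, 6.50 and 6.35 and fell by 1.01 (adjusted p = 0.037, lost in 8 of 18 settings), detected on 2 of the 3 arrays at 42 kBq. Col6a1, a chain of microfibrillar collagen, was at 8.68, 9.04 and 9.03 against 7.92, 8.22 and 8.04 and rose by 0.86 (adjusted p = 0.00147), with 1 of its 2 probes called. Of 13 fibroblast and matrix genes these 2 were the called ones. The endothelial, lymphocyte, neutrophil, red cell, renin cell, intercalated cell, muscle and adrenal lists had no calls by limma, and at an unadjusted p under 0.05 the endothelial, T and NK cell and red cell lists had 1 gene each and the intercalated list 2. Xist and Fcrls, which mark the sex of cells and resident macrophages, differed by 0.33 and -0.36 without a call, and Eif2s3y, a Y-linked gene, was detected on 1 of 18 cortex arrays.

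The same contrast was read in the medulla, and the difference between the zones was tested in 1 fit of 36 arrays. The labels do not say whether cortex and medulla arrays came from the same animals, and the fit treats all 36 as independent. In that fit 816 of 16486 probes (4.95%) were called in medulla. Of the 262 probes that rose in cortex, 223 (85.1%) were above 0 in medulla and 102 of these were called there. Of the 375 that fell, 236 (62.9%) were below 0 in medulla, 82 of them called. Over all probes the signs matched in 55.8%. The test of the difference itself called 306 of the 16486 probes (1.86%), with 99 higher in cortex (0.601%) and 207 lower (1.26%). It called 43 of the 262 higher probes (16.4%) and 100 of the 375 lower probes (26.7%). These probes were chosen by the same cortex difference that enters this test, which by itself raises their shares above 1.86%.

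Among the 10 largest rises the medulla difference was above 0 in all, from 0.17 to 2.10, and the zones differed in 7. The 10 were chosen for their cortex rise, which enters the test of the zones. Kap rose by 4.38 ± 0.89 (SE) more in cortex than in medulla on the log2 scale (adjusted p = 0.0052), and its 0 kBq medulla mean was 14.30, close to the top of the range. Npy rose by 2.73 ± 0.30 (SE) more in cortex (adjusted p = 2.41e-06). Hdc rose in medulla too, by 2.10 (adjusted p = 0.00084), and its difference between the zones was not called (1.31, adjusted p = 0.26). Lcn2 had a medulla difference of -2.85 (adjusted p = 1.7e-09), with a difference between the zones of 0.07 ± 0.35 (SE, adjusted p = 0.97), and Timp1 fell there by 2.06 (adjusted p = 2.8e-07). Calr, in contrast, differed by 0.38 in medulla and its zones differed by -1.31 ± 0.24 (SE, adjusted p = 0.0023). Pfkp, the platelet type of phosphofructokinase, was at 7.89, 7.77 and 7.68 against 9.03, 8.81 and 8.76 in cortex, a fall of 1.09 (adjusted p = 0.0037), and lay 0.38 above 0 in medulla. Ddx5, an RNA helicase, was at 6.09, 6.10 and 6.0 against 7.23, 7.19 and 7.18 in cortex, a fall of 1.14 (adjusted p = 0.000526), and differed by 0.27 in medulla. The clock genes Per1, Per2, Ciart and Usp2 were called in medulla as well, with rises of 0.70 to 1.14, and the test of the difference between the zones gave them adjusted p-values between 0.59 and 0.94.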

How the data were processed

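RNA of 90 tissue samples was measured on Illumina mouse bead arrays. The deposited unnormalised table holds 1 intensity per probe and array on a linear scale, and beside it a detection p-value that the authors deposited. The authors' value table, also deposited as intensity on a linear scale, served as an alternative. Its normalisation is not given in the sources used here.

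Background was corrected by normal-exponential convolution from the detection p-values with an offset of 16, and log2 intensities were quantile normalised over the 18 cortex arrays (limma 3.58.1, R 4.3.3). Probes entered the test if 3 or more arrays had a detection p under 0.05. One mean per group was fitted over 6 groups (12 residual degrees of freedom), with variances moderated along an intensity trend. Two-sided p-values were adjusted by Benjamini and Hochberg's method over 15063 probes, and the call threshold was an adjusted p of 0.05. Differences between zones came from a fit of all 36 kidney arrays normalised together, with 16486 probes. The procedure was tested on simulated data. Of 25697 probes 23978 had a gene symbol, updated through the Entrez identifier.

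Same-numbered arrays of the groups deviated together (correlations 0.19, 0.16 and 0.14), so the replicate number was fitted as a block in an alternative. No other batch is given in the labels.

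The members and 50 gene lists were chosen with earlier results of these data known. Named genes were the 10 largest rises and falls among calls whose arrays did not overlap and were detected in the brighter group, up to 4 called genes per list, 21 genes whatever their values, and the 5 largest zone differences in each direction. Clu, Krt8, Slc5a1, Slc7a12, Adipoq, Ucp1 and the probe without a name were added after their values were seen. The number of arrays limits the precision.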

Additional observations from a re-analysis of the deposited data

Results flagged for a closer look

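For 15 named genes the difference between 42 and 1.8 kBq differed between kidney cortex and kidney medulla by the test of that difference (limma, adjusted p under 0.05). Values are cortex minus medulla on the log2 scale. The larger rise was in cortex for Kap (4.38), Npy (2.73), Nccrp1 (2.70), Spink6 (2.56), Bcat1 (2.50), Abcc3 (1.97), Slc5a3 (1.85), Ldc1 (1.68) and Col6a1 (0.92). The change was lower in cortex for Pfkp (-1.45), Ddx5 (-1.39), Acad8 (-1.35) and Calr (-1.31). The fit also gave Ahsg -1.82 and Cela2a -0.97, but neither was above background on the 42 kBq cortex arrays, so these values are no measured sizes and have no order. Of these, Acad8, a mitochondrial acyl-CoA dehydrogenase, was not called in cortex itself (log2 -0.66, adjusted p = 0.083) and rose in medulla by 0.70 (adjusted p = 0.010). Kap and the other 6 of the 10 largest rises in this group were already high in 0 kBq medulla, and whether a high starting level limited their rise there was not tested. Groups of 3 arrays were too small for a search for single outlying arrays.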

How the results depend on the processing

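Among the alternatives, the number of called probes (637) moved by over 1.5 times with most choices of arrays and with array weights. With the 12 arrays at 0, 1.8, 14 and 42 kBq it was 1621 (735 higher, 886 lower), with the 6 arrays compared 1122 (473 and 649), and with array weights 1394 (605 and 789). Leaving out 1 array gave 280 to 436 calls, 123 to 194 higher and 157 to 242 lower. The calls for the difference between the zones (306) became 1034 with 24 arrays and 720 with 12 arrays, and 163 to 297 without 1 array. Both lower ranges come with fewer arrays. For the other changes the cause was not tested, though the 6 arrays at 0.064 and 0.64 kBq had the larger spread within groups. With the replicate number as a block shared by all groups, 787 probes were called (339 higher, 448 lower) and 366 for the zones. This block thus moved no count past 1.5 times. A pairing of cortex and medulla arrays by animal was not fitted. Background correction, offset, scaling, detection filters, the intensity trend and the deposited value table gave 505 to 699 calls. No call changed sign in any alternative. Of 1196 values for named genes, 107 lost their call, 35 gained one and 1054 kept their side of the threshold. Calls were lost most often for Cyp4b1 (10 of 18 settings) and Acadm and Col1a1 (8 each), and at least once for genes further from the threshold such as Tmem145, Creld2 and Per2. For gene lists, 52 of 738 medians moved by more than their spread, most often for the inner medulla (10 settings), fat cell and cholesterol lists (7 each). With median scaling the median change over all probes was -0.03, and 181 probes were called higher and 359 lower. Levels near the detection limit, as for Ahsg and Apoa1 at 42 kBq, give only bounds.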
